A study of Mus musculus with 84 samples.

Results

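The factors of the AP-1 family and the immediate early factors that are induced beside them were followed from MEFs through reprogramming to ESCs. They were chosen by name as Fos, Fosb, Fosl1, Fosl2, Jun, Junb, Jund, Atf3, Egr1 and Ier2, and all 10 were found among the 18909 genes of the count table. AP-1 is a dimer of bZIP proteins in which a FOS or ATF partner joins a JUN protein, and it binds DNA at short palindromic sites. Many of its genes are immediate early genes, which are transcribed within minutes of growth factor or stress signals without new protein synthesis and whose mRNAs decay quickly. In fibroblasts AP-1 is known for keeping somatic enhancers active, and c-Jun is known to hold back reprogramming to pluripotency when it is overexpressed.

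The 10 groups of samples were measured with STRT RNA-seq, which tags the 5′ ends of transcripts, with 3 biological replicates in each group and 30 libraries in all. MEFs were wild-type 129 fibroblasts grown in serum with 5 ng/ml FGF2 and heparin, and ESCs were of the TNG MKOS line grown with LIF. Reprogramming cells were MEFs from chimeric embryos that carry a doxycycline-inducible MKOS-ires-mOrange cassette, kept in ESC medium with vitamin C and 300 ng/ml doxycycline and sorted for mOrange on days 3, 6, 8 and 10. They were infected with a retrovirus for BFP (Cont) or for Smad3CA, a constitutively active form of the TGF-β effector SMAD3 (+Sm3CA). MEFs, ESCs and reprogramming cells thus differ in genotype, medium, infection and doxycycline, and the sources describe sorting of the MEFs and ESCs in different ways, so that handling, medium and cell state cannot be told apart in comparisons between them. On the plate, MEFs, ESCs and day 3 shared rows, days 6 and 8 shared others and day 10 had rows of its own, so these rows and the days cannot be told apart, whereas Cont and +Sm3CA of a day lay in the same rows. The mOrange sort selects cells with the cassette on and not cells that will become iPSCs.

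Libraries held 1008596 to 2296059 reads. Values are read counts divided by DESeq2 size factors (normalized counts), and since reads and not molecules were counted, copies made in amplification are included. Smad3, whose counts combine the endogenous gene and the vector, was at 32.8 to 184 normalized counts in +Sm3CA libraries and at 5.19 to 25.4 in Cont libraries, with no overlap on any day. Summed over 10 fibroblast markers, MEF libraries held 4533 to 6248 normalized counts and ESC libraries 4.57 to 14.5, with Col1a2, Col3a1, Prrx1 and Lum at 0 in ESCs. Summed over 10 ESC markers, ESC libraries held 29650.2 to 54230.0 and MEF libraries 8.89 to 12.1, with Esrrb, Utf1, Fgf4, Tfcp2l1 and Tcl1 at 0 in MEFs. Markers of myeloid and mast cells were present in MEFs, at 595 to 2162 over 8 genes with Kit at 0, and were at 53.9 to 73.3 in ESCs. The labels call the replicates biological without naming embryos or cultures, so p-values measure the spread between these libraries.

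RefSeq promoters, from 250 bases before to 50 bases after the start, could be matched for 7 of the 10 genes. The promoters of Jun, Atf3 and Fosl2 are printed because these genes differed most clearly between day 3 and MEFs. Jun and Atf3 were higher on day 3 and Fosl2 was lower. Capitals mark matches on either strand to the letters searched, which were the AP-1 site TGANTCA, the CRE-type site TGACNTCA, the related site TTACNTCA, the EGR site GCGNGGGCG and the CArG box of SRF, and which were chosen with these sequences in view. No match of one motif overlapped a match of another.
Jun promoter, GRCm38.p6 chr4:95052173-95052472, minus strand: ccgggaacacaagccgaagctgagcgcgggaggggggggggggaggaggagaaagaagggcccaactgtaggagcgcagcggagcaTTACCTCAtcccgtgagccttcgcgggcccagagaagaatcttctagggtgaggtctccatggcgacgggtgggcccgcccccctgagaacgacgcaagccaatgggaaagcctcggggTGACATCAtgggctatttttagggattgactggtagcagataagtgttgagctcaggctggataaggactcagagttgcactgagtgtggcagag
Atf3 promoter, GRCm38.p6 chr1:191183284-191183583, minus strand: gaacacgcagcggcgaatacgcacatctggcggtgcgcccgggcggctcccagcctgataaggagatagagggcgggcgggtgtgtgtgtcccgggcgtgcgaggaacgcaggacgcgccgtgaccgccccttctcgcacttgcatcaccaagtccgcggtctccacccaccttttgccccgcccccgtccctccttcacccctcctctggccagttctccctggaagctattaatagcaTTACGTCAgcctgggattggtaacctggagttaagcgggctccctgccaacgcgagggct
Fosl2 promoter, GRCm38.p6 chr5:32136222-32136521, plus strand: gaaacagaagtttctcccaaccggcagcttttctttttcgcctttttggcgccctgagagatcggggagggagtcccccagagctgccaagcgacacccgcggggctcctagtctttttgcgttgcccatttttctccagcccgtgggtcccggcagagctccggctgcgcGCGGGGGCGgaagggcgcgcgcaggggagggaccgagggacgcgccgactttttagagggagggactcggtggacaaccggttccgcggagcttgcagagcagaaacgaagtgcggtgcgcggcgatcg

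Jun held TTACCTCA at -164 to -157 and TGACATCA at -45 to -38 from the start, the kind of pair through which JUN and ATF proteins are known to act on the Jun gene itself. Atf3 held TTACGTCA at -10 to -3. Fosl2 held GCGGGGGCG, the letters of an EGR site, at -79 to -71, and Fosb held the same letters at -50 to -42. Of 32851 promoters of this length, 7.81% held the AP-1 site, 8.83% the CRE-type site, 3.30% the related site, 5.55% the EGR site and 1.63% the CArG box. The promoters of Fos, Junb and Jund held none of these letters in this window. The Jund window (chr8:70697489-70697788, plus strand) ends before the gene annotated by GENCODE, which begins at 70698949. The matches describe the sequences, and binding was not measured here. Jun lies on chromosome 4 (95049034 to 95052222, minus strand), Atf3 on chromosome 1 (191170296 to 191218039, minus strand) and Fosl2 on chromosome 5 (32135801 to 32157842, plus strand) in the GENCODE annotation of GRCm38. The printed starts of Atf3 and Fosl2 lie inside the annotated genes. The other members lie on chromosomes 12 (Fos), 7 (Fosb), 19 (Fosl1), 8 (Junb, Jund and Ier2) and 18 (Egr1).

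The first comparison asked how the end states of reprogramming differ. In ESCs the FOS branch of AP-1, Jun and Egr1 were far below their levels in MEFs. Fos, the prototype immediate early factor, was at 71.1, 69.5 and 59.6 normalized counts in the MEF libraries and at 6.39, 5.42 and 3.86 in the ESC libraries. Its log2 fold change was -3.51 ± 0.41 (SE; adjusted p = 8.1e-10 by the quasi-likelihood test of edgeR, adjusted after Benjamini and Hochberg over all genes tested, n = 3 per group). Fosl2 (FRA-2), a FOS protein of longer-lived expression, was at 109, 105 and 107 in MEFs and at 0.913, 0 and 0 in ESCs. The 3 ESC libraries held 1 Fosl2 read against 319 in MEFs, a 260-fold difference with a 95% counting interval of 46.3 to 10294. No read of Fosb or Fosl1 was found in ESCs.

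Fosb, which encodes a FOS protein that also has a truncated form, was at 13.3, 23.9 and 19.0 in MEFs, at least 15.2-fold higher than a floor of 3 reads over the ESC group. Fosl1 (FRA-1) was at 3.33 to 13.8 in MEFs, at least 7.06-fold higher by the same floor. Intervals and floors cover counting error only. Jun, the main JUN partner of FOS proteins, was at 28.9, 48.8 and 45.8 in MEFs and at 4.57, 5.42 and 0 in ESCs (log2 fold change -3.50 ± 0.47, adjusted p = 2.5e-08 edgeR). Egr1, a zinc finger factor induced through SRF and ELK proteins, was at 117, 107 and 156 in MEFs and at 19.2, 36.1 and 11.6 in ESCs, with a log2 fold change of -2.49 ± 0.30 (adjusted p = 2.7e-09, edgeR). For these 6 genes no ESC library reached any MEF library, and the share of all genes without overlap in this comparison was not counted.

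The remaining members did not follow this pattern. Ier2, a small nuclear protein induced with the others, was the only member with a higher fitted value in ESCs, at 16.4, 65.0 and 36.0 against 17.8, 25.0 and 13.8 in MEFs. The log2 difference was 1.07 ± 0.39 (adjusted p = 0.0176, edgeR), but the libraries overlapped, and the adjusted p was 0.25 without ESC replicate 2, 0.051 without MEF replicate 1 and 0.082 without MEF replicate 3. Junb, a JUN protein that often opposes c-JUN, was at 10.9 to 13.8 in MEFs and 1.29 to 7.31 in ESCs. This difference of -1.19 ± 0.62 did not pass the test (adjusted p = 0.097, edgeR), although the libraries did not overlap, and without ESC replicate 1 it did (0.048). Jund, the JUN protein least tied to growth signals, and Atf3, a stress-induced factor that can repress AP-1 targets, did not pass either, at log2 differences of -0.98 ± 0.69 and -1.25 ± 0.74. All 6 Atf3 reads in ESCs came from replicate 1, and without it Atf3 was called lower in ESCs (adjusted p = 0.0041, edgeR).

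By edgeR 7 of 10 members were called between ESCs and MEFs, 6 of them lower in ESCs, where 59.6% of the 10979 genes tested were called and 30.5% were called lower. The median log2 fold change of the 10 members was -3.00, beside 0.00 over all genes tested. All 10 members passed the filter on low counts. Leaving out each library in turn gave 6 to 9 members called. Fewer cells of a type that expresses a gene and less RNA per cell cannot be told apart in such bulk samples. The summed markers of fibroblasts and of myeloid and mast cells were also lower in ESCs (values above). All 10 fibroblast markers were called lower, and of 8 myeloid and mast cell markers 6 were called lower and 1 higher. The part of these markers' cells in the differences of the members was not tested.

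The same FOS, JUN and EGR1 genes were also above their ESC levels in Cont cells on day 10, with Fosl1 at only 14 reads in all. Against these cells 7 of 10 members were called and all 7 were lower in ESCs, where 51.8% of genes were called and 30.3% were called lower. Here Atf3 was among them, at 56.8, 57.3 and 60.3 normalized counts in Cont on day 10 against 5.48, 0 and 0 in ESCs (log2 fold change -4.51 ± 0.54, adjusted p = 3.2e-09, edgeR). Fosl2 was at 67.9, 84.8 and 59.4 on day 10, which is 169-fold above its 1 read in ESCs with a counting interval of 30.02 to 6722. Fosb and Fosl1 were at least 14.0-fold and at least 4.18-fold higher on day 10 than the floor in ESCs. Jun was at 69.1, 92.0 and 55.6 and its log2 difference of -4.38 ± 0.44 had an adjusted p of 4.2e-11 (edgeR). The values of Fos and Egr1 were -3.37 ± 0.41 and -2.28 ± 0.31, with no overlap of libraries. Junb, Jund and Ier2 were not called, and without ESC replicate 1 Ier2 was called higher in ESCs (0.99 ± 0.39, adjusted p = 0.035, edgeR). The median over members was -3.87, beside -0.15 over all genes tested. ESC markers summed to 421 to 1039 in Cont on day 10, far under the ESC range, and fibroblast markers to 1356 to 2743.

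Summed over the 10 members, ESC libraries held 56.6 to 119 normalized counts and the other 27 libraries 311 to 517. Outside ESCs the group means of this sum ran from 334 in Cont on day 3 to 484 in +Sm3CA on day 6. Cont libraries of day 3 held 313 to 357, under the MEF range of 381 to 442. Single members moved in opposite directions.

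**Figure D1:**
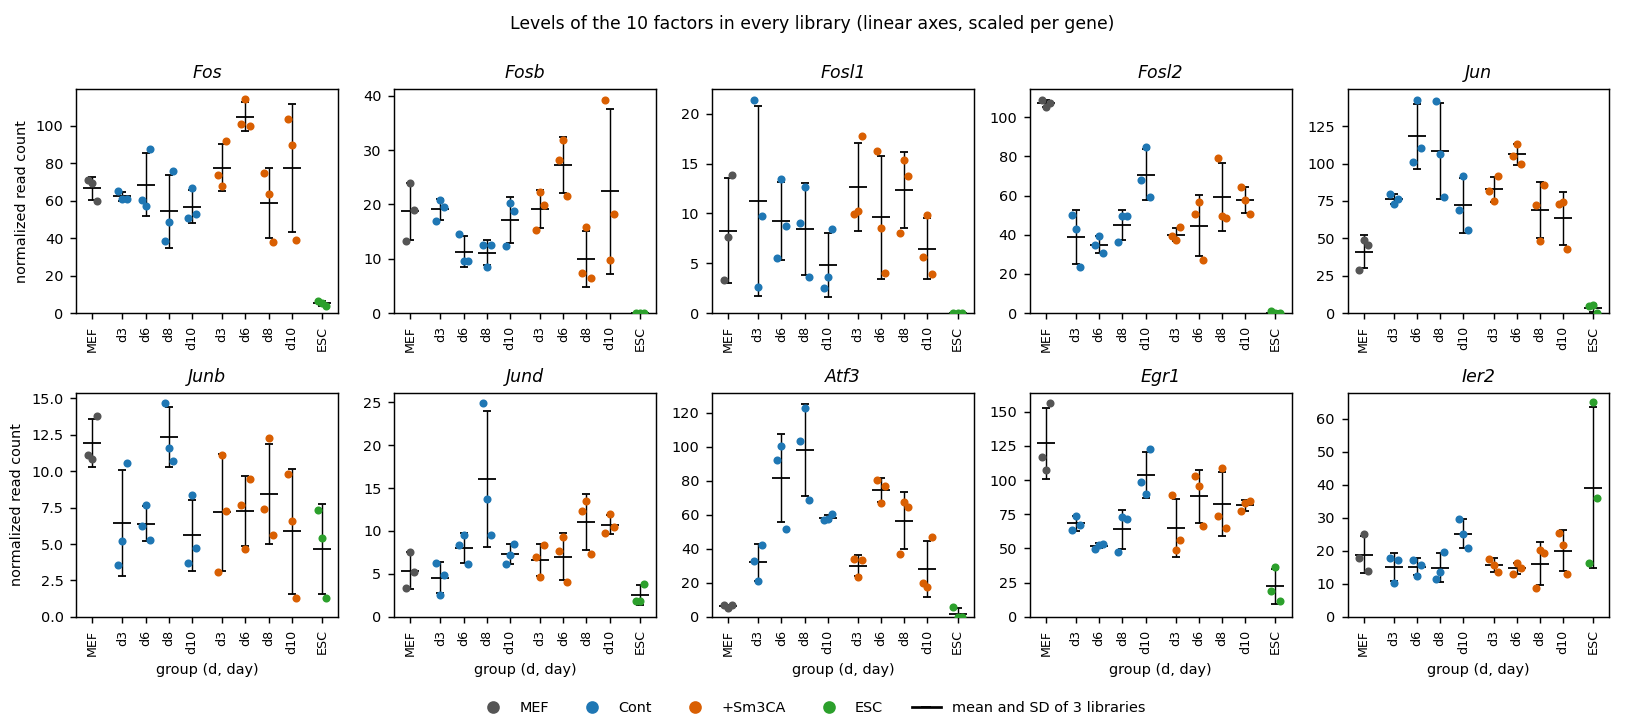
Normalized read counts (y axes, linear, scaled per gene) of the 10 factors in each of the 30 libraries (points), by group (x axes), with the mean and SD of 3 libraries (black). Fos, Fosb, Fosl1, Fosl2, Jun and Egr1 are lowest in ESCs, Fosl2 is highest in MEFs (105 to 109), and Atf3 goes from 5.43 to 6.91 in MEFs to 51.8 to 101 in Cont on day 6.

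The comparison of day 3 with MEFs asked how the earliest time sampled differed from these separate wild-type cells. Of the JUN and ATF genes, Jun and Atf3 were higher on day 3, whereas Fosl2 and Egr1 were lower. Atf3 was at 6.67, 5.43 and 6.91 in MEFs, at 33.0, 20.8 and 42.3 in Cont and at 33.8, 23.2 and 33.4 in +Sm3CA on day 3. All 6 day 3 libraries were above all MEF libraries. The log2 fold changes were 2.46 ± 0.45 in Cont (adjusted p = 2.2e-05) and 2.34 ± 0.45 in +Sm3CA (adjusted p = 5.2e-05, both by edgeR, n = 3 per group). Jun went from 28.9 to 48.8 in MEFs to 79.3, 72.6 and 76.4 in Cont and 81.4, 75.1 and 91.8 in +Sm3CA, at log2 fold changes of 1.00 ± 0.28 and 1.11 ± 0.28. The adjusted p-values by edgeR were 0.0040 and 0.0014, and that of Cont was 0.052 without MEF replicate 1, the lowest MEF library for Jun.

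Fosl2 was at 105 to 109 in MEFs and at 49.9, 42.8 and 23.6 in Cont and 39.1, 37.1 and 43.8 in +Sm3CA. It changed by -1.36 ± 0.27 on the log2 scale in Cont (adjusted p = 7.7e-05) and by -1.305 ± 0.27 in +Sm3CA (adjusted p = 0.00012, edgeR). Egr1 went from 107 to 156 in MEFs to 63.3 to 73.9 in Cont and 49.2 to 89.0 in +Sm3CA. The log2 changes were -0.79 ± 0.26 and -0.84 ± 0.26, with adjusted p-values by edgeR of 0.0116 and 0.0067, and without MEF replicate 3 they were 0.095 and 0.064. Libraries did not overlap for any of these 4 genes in either series, and the share of all genes without overlap from MEFs was not counted. Fos, in contrast, was at 61.0 to 65.1 in Cont on day 3 and 59.6 to 71.1 in MEFs, a log2 difference of 0.03 ± 0.28. Fosb in Cont differed by 0.13 ± 0.41, Fosl1 by 0.57 ± 0.61, Ier2 by -0.16 ± 0.41, Jund by -0.06 ± 0.59 and Junb, with libraries apart, by -0.73 ± 0.57, and none of these passed the test.

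The call was made for 4 of 10 members in Cont, where 43.4% of the 10979 genes were called, and for 4 of 10 in +Sm3CA, where 43.1% were. Both comparisons use the same MEF libraries. The counts of members are thus near those of all genes, and the member medians of -0.02 and 0.23 are beside 0.00 over all genes in both. Fibroblast markers summed to 1010.0 to 1467 in Cont and 1316 to 1657 in +Sm3CA on day 3, under the MEF range of 4533 to 6248, and their part in the fall of Fosl2 and Egr1 was not tested.

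**Figure D2:**
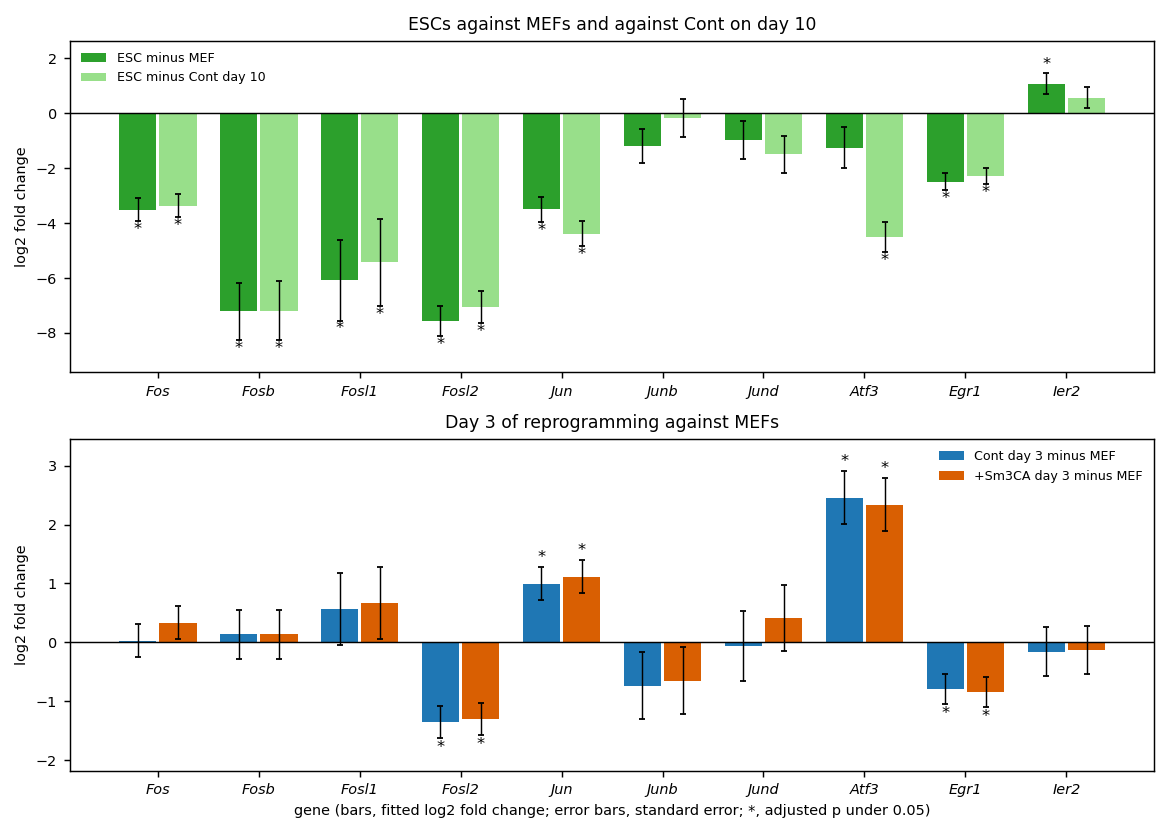
Fitted log2 fold changes (y axes) of the 10 factors (x axes) with standard errors from edgeR, n = 3 libraries per group, for ESCs against MEFs and against Cont on day 10 (top) and for day 3 against MEFs (bottom). Asterisks mark adjusted p under 0.05. Fitted values of Fosb and Fosl1 in the top panel rest on 0 reads in ESCs and are not fold estimates. Atf3 (2.46 and 2.34) and Jun (1.00 and 1.11) point up and Fosl2 (-1.36 and -1.305) and Egr1 (-0.79 and -0.84) point down on day 3.

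Between days, the changes of the members were few. In Cont, Atf3 was at 33.0, 20.8 and 42.3 on day 3, 92.1, 101 and 51.8 on day 6, 103, 122 and 68.6 on day 8 and 56.8, 57.3 and 60.3 on day 10. The rise from day 3 to day 6 was 1.31 ± 0.30 on the log2 scale (adjusted p = 0.0032, edgeR), and 1 of 10 members was called in this step, where 9.12% of the 10237 genes tested were. In +Sm3CA Atf3 was at 80.4, 66.8 and 76.9 on day 6, a rise of 1.32 ± 0.30 (adjusted p = 0.0018, edgeR), again the 1 member called where 18.6% of genes were. From then on it was at 37.1, 67.4 and 64.6 on day 8 and 19.6, 17.5 and 46.9 on day 10. The last step of -1.01 ± 0.32 did not pass the test (adjusted p = 0.057, edgeR), and without day 10 replicate 3 or day 8 replicate 1 it did, at 0.0103 and 0.028. With the replicate number as a block within each series it was 0.043.

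Jun had its highest group means on day 6, at 101, 143 and 111 in Cont and 105, 113 and 99.9 in +Sm3CA. Its difference from day 3 of 0.62 ± 0.23 in Cont did not pass the test (adjusted p = 0.080, edgeR), although the libraries did not overlap. In +Sm3CA the difference was 0.38 ± 0.23, also with libraries apart (adjusted p = 0.26, edgeR). Jun in Cont was back at 69.1, 92.0 and 55.6 on day 10, near its day 3 level, with a log2 difference of -0.10 ± 0.24. The step from day 8 to day 10, of -0.58 ± 0.23, was not called (adjusted p = 0.22, edgeR). Egr1 in +Sm3CA was 0.46 ± 0.23 higher on day 6 than on day 3 (adjusted p = 0.16, edgeR), and was called without day 3 replicate 1 (0.027), its highest library of that day.

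From day 6 to day 8 in +Sm3CA, Fos and Fosb fell. Fos was at 101, 114 and 99.9 on day 6 and 74.8, 63.7 and 37.9 on day 8, a log2 change of -0.84 ± 0.26 (adjusted p = 0.038, edgeR). Fosb was at 28.2, 31.8 and 21.6 and then 7.42, 15.9 and 6.46, a change of -1.46 ± 0.39 (adjusted p = 0.0172, edgeR). For both genes the libraries of the days were apart, and the share of all genes with libraries apart in this step was not counted. These were 2 of 10 members where 6.68% of genes were called. Both calls depended on the libraries used. Without +Sm3CA day 6 replicate 2 neither was made, at adjusted p-values by edgeR of 0.099 for Fos and 0.064 for Fosb. The call of Fos was also lost without day 6 replicate 1 (0.067) or 3 (0.094) and without day 8 replicate 2 (0.080) or 3 (0.134), and that of Fosb without day 8 replicate 1 (0.084). Jun changed by -0.65 ± 0.23 in this step (adjusted p = 0.074, edgeR) and was called without day 8 replicate 3 (0.024). Day 10 libraries of +Sm3CA spread widely, with Fos at 104, 89.6 and 39.1 and Fosb at 39.3, 9.83 and 18.2. The step of Fosb from day 8 to day 10, of 1.11 ± 0.41, had an adjusted p of 0.107 (edgeR), and of 0.048 and 0.045 without day 8 replicate 2 and day 10 replicate 2. Day 10 replicate 1, the highest for Fosb, held 1385 normalized counts of neural and choroid plexus markers against 155 to 212 in the other day 10 libraries of +Sm3CA, and their part in its value was not tested.

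No member was called from day 8 to day 10 in +Sm3CA, where 4.85% of genes were, nor from day 6 to day 8 in Cont (1.69% of genes) or from day 8 to day 10 in Cont (2.4%). At an unadjusted p under 0.05 these steps held 2, 1 and 5 members by edgeR, where 1961, 1333 and 1474 of the 10237 genes were under it. The DESeq2 Wald test gave 2, 0 and 4 members and called none of them. The 5 of the last Cont step were Fosl2 and Egr1, with positive values of 0.63 and 0.69, and Jun, Jund and Atf3, with negative values of -0.58, -1.07 and -0.73.

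Over the whole course from day 3 to day 10, Fosl2 and Egr1 rose in Cont. Fosl2 went from 49.9, 42.8 and 23.6 to 67.9, 84.8 and 59.4 (log2 fold change 0.86 ± 0.27, adjusted p = 0.0153, edgeR), which left it under its MEF range of 105 to 109. Egr1 went from 63.3, 73.9 and 67.5 to 98.8, 89.6 and 122 (0.60 ± 0.23, adjusted p = 0.049, edgeR). Atf3, with 0.81 ± 0.31, just missed the threshold (adjusted p = 0.051, edgeR), with libraries apart, and passed it without day 3 replicate 3 (0.033). So 2 of 10 members were called where 25.3% of genes were. The call of Egr1 was lost without any of the 6 libraries (adjusted p 0.055 to 0.25, edgeR), without the filter on low counts (0.084), and with the replicate number as a block over both series (0.054), but not with a block within each series (0.047). Fosl2 was lost by edgeR without Cont day 3 replicate 3 (adjusted p = 0.154) or day 10 replicate 2 (0.101).

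In +Sm3CA no member was called between day 3 and day 10, where 33.7% of genes were. None had an unadjusted p under 0.05 by edgeR or by the DESeq2 Wald test, and by edgeR 4411 of 10237 genes did. Fosl2 was at 39.1, 37.1 and 43.8 on day 3 and 64.5, 57.9 and 50.8 on day 10, a log2 difference of 0.54 ± 0.27 with no overlap. Egr1 was at 49.2 to 89.0 and then 77.1 to 84.6, a difference of 0.33 ± 0.23. The test of the difference between the series, the change of the +Sm3CA minus Cont value from day 3 to day 10, gave -0.33 ± 0.38 for Fosl2 and -0.27 ± 0.33 for Egr1. It called no member, where 1.01% of genes were called. No member had an unadjusted p under 0.05 by edgeR or by the DESeq2 Wald test, and by edgeR 1236 of 10237 genes did.

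The effect of Smad3CA was asked on each day against Cont. No member was called on day 3, 6, 8 or 10 by edgeR or by the DESeq2 Wald test, and the share of all 10237 genes called was 0.0195%, 0.00977%, 1.04% and 3.58%. At an unadjusted p under 0.05 there were 0, 3, 2 and 1 members by both tools. By edgeR 523, 426, 1559 and 1630 of the 10237 genes were under it on these days. On day 3 the members lay close together, with log2 differences from -0.13 (Atf3) to 0.46 (Jund). Fos was at 73.7, 67.7 and 91.8 in +Sm3CA and 65.1, 61.0 and 61.0 in Cont, and was the 1 member with no overlap, where 11.6% of genes had none.

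On day 6, Fos, Fosb and Egr1 had higher values in every +Sm3CA library than in any Cont library. Egr1 was at 103, 95.5 and 66.1 in +Sm3CA and 49.8, 52.7 and 53.6 in Cont, a log2 difference of 0.79 ± 0.23 (unadjusted p = 0.00148, adjusted p = 0.95, edgeR). Fosb was at 28.2, 31.8 and 21.6 against 14.5, 9.57 and 9.66, a difference of 1.27 ± 0.39 (unadjusted p = 0.00239, adjusted p = 0.95, edgeR). Fos was at 101, 114 and 99.9 against 60.2, 57.4 and 87.8, a difference of 0.63 ± 0.26. An exact permutation test with 3 libraries against 3 cannot give a p below 0.1, the value it gave for each of them. These 3 of 10 members without overlap stand beside 11.5% of all genes. Over the alternative settings the lowest adjusted p of Fosb and Egr1 was 0.36 and that of Fos 0.45.

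On day 8, Atf3 was at 37.1, 67.4 and 64.6 in +Sm3CA and at 103, 122 and 68.6 in Cont, a log2 difference of -0.77 ± 0.27 (adjusted p = 0.143, edgeR). It was the only one of the 10 members whose libraries were apart, where 15.9% of genes had none in common. Jun was at 72.3, 48.4 and 85.6 against 142, 107 and 77.6, a difference of -0.63 ± 0.23 with overlap (adjusted p = 0.148, edgeR), and without +Sm3CA replicate 3 its adjusted p was 0.047. Fosl2, Fosl1 and Egr1 had positive differences of 0.40 ± 0.25, 0.64 ± 0.56 and 0.37 ± 0.22 that did not pass. Cont replicate 1, the highest Cont library for Jun that day, held 3069 normalized counts of neural and choroid plexus markers against 700.4 to 755 in the other Cont libraries, and their part in the Jun values was not tested.

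On day 10, Atf3 was at 19.6, 17.5 and 46.9 in +Sm3CA and at 56.8, 57.3 and 60.3 in Cont. The log2 difference of -1.05 ± 0.33 just missed the threshold (unadjusted p = 0.00285, adjusted p = 0.067, edgeR). It was called without a filter on low counts, and without +Sm3CA replicate 3, the highest of its group, the difference was -1.62 ± 0.37 (adjusted p = 0.0135, edgeR). The change of this difference from day 3 to day 10 was -0.92 ± 0.46 (unadjusted p = 0.054, adjusted p = 0.42, edgeR). Egr1 was lower in every +Sm3CA library, at 77.1, 83.0 and 84.6 against 98.8, 89.6 and 122 (-0.33 ± 0.23), and Jund was higher, at 9.81 to 12.02 against 6.17 to 8.48 (0.57 ± 0.52). With Atf3 these were 3 of 10 members without overlap, where 20.7% of genes had none. Myeloid and mast cell markers summed to 899 to 1611 in +Sm3CA and 631 to 2736 in Cont on day 10. Fibroblast markers summed to 1292 to 1664 and 1356 to 2743, with 5 of 10 called lower in +Sm3CA. ESC markers summed to 1056 to 2317 in +Sm3CA and 421 to 1039 in Cont, with 3 of 9 tested called higher in +Sm3CA and 0 lower. The part of these markers' cells in the Atf3 values was not tested.

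**Figure D3:**
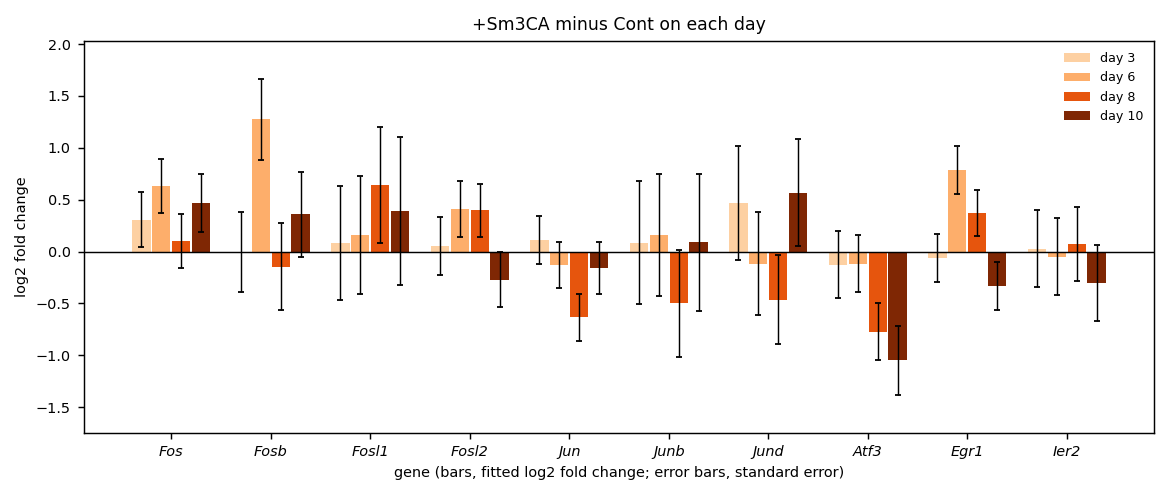
Fitted log2 difference between +Sm3CA and Cont (y axis) for the 10 factors (x axis) on days 3, 6, 8 and 10, with standard errors from edgeR, n = 3 libraries per group. No bar passed an adjusted p of 0.05. Fosb and Egr1 stand highest on day 6 (1.27 and 0.79), and Atf3 goes from -0.13 on day 3 to -1.05 on day 10.

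Read depth set what could be seen for the weakest members. No library held more than 20 reads of Junb, 22 of Jund or 25 of Fosl1, and their standard errors between +Sm3CA and Cont ran from 0.43 to 0.71 on the log2 scale, against 0.22 to 0.25 for Jun. A difference of these genes within such errors was not detectable at this depth. Junb had 3.07 to 14.7 normalized counts outside ESCs apart from 1.302 in 1 +Sm3CA library of day 10. Jund reached 24.9 in 1 Cont library of day 8, and the group mean there was 16.1 ± 7.94 (SD, n = 3). Ier2 was at 8.65 to 29.6 outside ESCs and its group means of 14.7 to 25.1 overlapped from neighbour to neighbour.

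Ordered by group mean, Fosl2 was highest in MEFs (107 ± 1.79) and Cont on day 10 (70.7 ± 13.0), Egr1 in MEFs (127 ± 26.0) and Cont on day 10 (104 ± 17.0), and Jun in Cont on day 6 (118 ± 21.8) and day 8 (109 ± 32.0). Atf3 was highest in Cont on day 8 (98.01 ± 27.2) and day 6 (81.5 ± 26.0), and Fos and Fosb in +Sm3CA on day 6 (105 ± 7.94 and 27.2 ± 5.19). MEFs were apart from the next group for Fosl2, and +Sm3CA on day 6 was apart from the next group for Fos. The other leading pairs overlapped. ESCs ranked last for every member but Ier2 and were apart from the next group for Fos, Fosb, Fosl1, Fosl2, Jun and Egr1, but overlapped MEFs for Atf3.

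Across the 10 group means some members had a like order of levels. Spearman's rho was 0.879 for Jun with Atf3, and 0.855 for Fos with Fosb and for Fosl2 with Egr1. Among the 10979 genes tested, the 2 genes most like Fosl2 were Ulk2 (rho = 0.988) and the collagen gene Col1a2 (0.976). For Jun they were Dlx2 (0.976) and Zcchc7 (0.964), for Atf3 Nin (0.976) and 1810034E14Rik (0.964), for Egr1 Fap (0.976) and Lyrm2 (0.952), and for Ier2 Mycn and Aass (both 0.976). For Fos they were Anapc16 and Ccny and for Fosb Dffa and Rsrc1, at rho from 0.891 to 0.903. These values describe 10 points that come from the same libraries and are no test.

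Other genes that respond with the members were followed as a list of 34 further immediate early genes, of which 33 were found and 27 could be tested against MEFs. By edgeR 16 of 27 were lower in Cont on day 3 than in MEFs and 2 were higher, where 43.4% of all genes were called and 2290 of 10979 were lower, with a median log2 fold change of -0.89 beside 0.00 for all genes. Ctgf, a secreted YAP and TGF-β target, was at 1535 ± 162 in MEFs and 78.1 ± 13.8 in Cont, a change of -4.18 ± 0.28 (adjusted p = 4.3e-16, edgeR). Klf6, a zinc finger factor, changed by -3.03 ± 0.21, and Klf10, a TGF-β-inducible factor of the same family, rose by 2.03 ± 0.21. In +Sm3CA the counts were 14 lower and 2 higher, where 2270 of all genes were lower. Summed, the list was at 4545 to 5130 in MEFs, 1402 to 1439 in Cont and 1475 to 1505 in +Sm3CA on day 3, and 1292 to 1790.1 in ESCs. In ESCs 16 of the 27 were lower than in MEFs and 6 were higher, with a median log2 fold change of -2.80. There 59.6% of all genes were called and 30.5% were called lower. No read was found in ESCs for 6 of the 33 genes and in MEFs for 3.

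From day 3 to day 10, 8 of 26 of these genes rose and 2 fell in Cont, where 25.3% of the 10237 genes tested were called, 1395 of them higher and 1192 lower. Tnfaip3, an inhibitor of NF-κB signalling, went from 3.08 ± 3.52 to 32.2 ± 14.5 (log2 fold change 3.30 ± 0.55, adjusted p = 1.7e-05, edgeR), and Rhob, a small GTPase gene, changed by -1.23 ± 0.32. Between +Sm3CA and Cont none of the 26 was called on days 3 and 6. On day 8, 1 was called lower, where 1.04% of all genes were called, and on day 10, 2 were called lower, where 3.58% were called. At day 10 Ctgf (75.3 ± 6.79 against 138 ± 18.4) and Cyr61 (78.3 ± 16.4 against 137 ± 30.5), which encode matricellular proteins, differed by -0.86 ± 0.24 and -0.79 ± 0.23 with no overlap (adjusted p = 0.036 and 0.045, edgeR).

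Genes known as AP-1 targets were taken as a list of 24, 19 of which were tested. Between Cont on day 3 and MEFs 13 fell and 3 rose, where 43.4% of all genes were called and 2290 of 10979 fell, with a median of -1.30, and in +Sm3CA 12 fell and 3 rose, with a median of -2.14. The fibronectin gene Fn1 changed by -4.18 ± 0.24 in Cont, while the metallothionein genes Mt1 and Mt2 rose by 2.52 ± 0.25 and 4.18 ± 0.33. Fibroblast marker sums fell with them (values above), and their part was not tested. In ESCs 15 of 19 were lower than in MEFs and 2, Mt1 and Mt2, were higher, where 59.6% of all genes were called and 30.5% were lower.

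On day 10, 6 of the 19 AP-1 targets were lower in +Sm3CA than in Cont by edgeR, none was higher and 13 were not called, where 3.58% of all genes were called, with a list median of -0.90 beside -0.01. Fibroblast markers moved the same way, with 5 of 10 lower and none higher (median -1.03), and 1 of 7 myeloid and mast cell markers tested was lower (median -0.95). Of 9 ESC markers tested, 3 were higher in +Sm3CA and 0 lower (median 0.61). Ccl2, a chemokine gene, was at 957, 1860.3 and 1999 in Cont and 447, 436 and 337 in +Sm3CA (log2 difference -1.96 ± 0.23, adjusted p = 7.6e-07, edgeR). Timp1, an inhibitor of metalloproteinases, was at 1337, 2263 and 1850 against 489, 729 and 387 (-1.74 ± 0.25, adjusted p = 1.6e-05, edgeR), and Fn1 differed by -1.08 ± 0.21. On days 3 and 6 no gene of the list was called. On day 8, 1 gene was called, where 1.04% of all genes were, and this was Mt2, higher by 0.85 ± 0.21 (adjusted p = 0.033, edgeR). The change of the difference from day 3 to day 10 was called for 3 of the 19, where 1.01% of all genes were called. It was also called for 3 of the 10 fibroblast markers. Cont replicate 1 was the lowest Cont library of day 10 for Ccl2 and Timp1, and it also held the lowest Cont sums of myeloid and of fibroblast markers that day, 631 and 1356. The part of these markers' cells in the values of the targets was not tested.

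**Figure D4:**
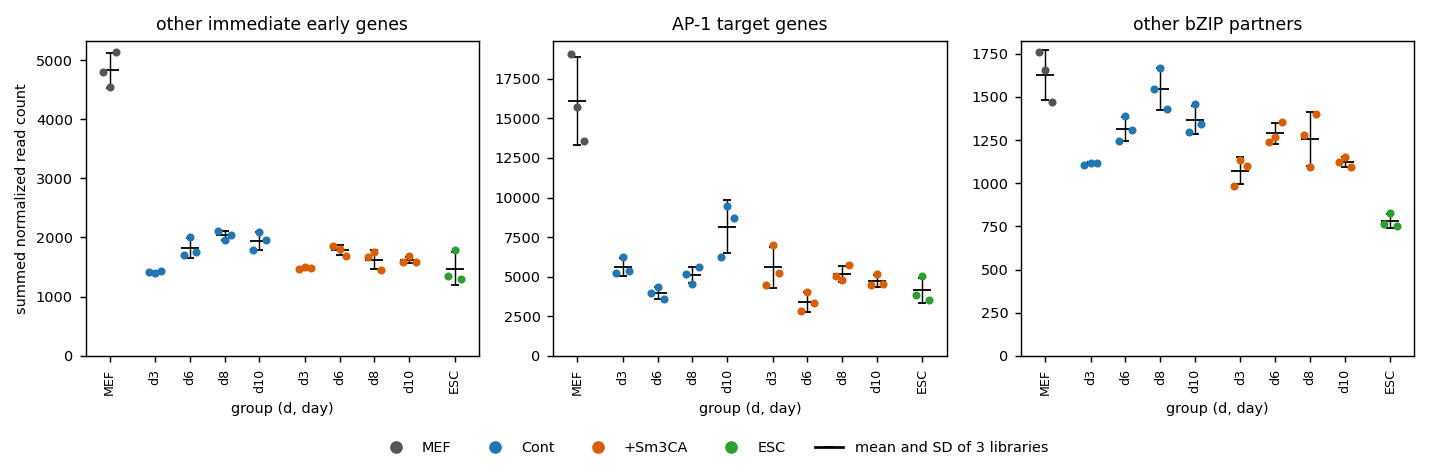
Normalized read counts summed over 33 other immediate early genes, 24 AP-1 target genes and 24 other bZIP genes (y axes, linear) in each library (points) by group (x axes), with the mean and SD of 3 libraries (black). MEFs are highest for the immediate early genes (4545 to 5130) and for the AP-1 targets (13551 to 19094), and in +Sm3CA on day 10 the AP-1 targets sum to 4503 to 5185 against 6268 to 9465 in Cont.

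Other bZIP genes, whose proteins can join or compete with AP-1, were a list of 24 with 16 tested. In Cont on day 3, 6 were lower than in MEFs and none higher, where 43.4% of all genes were called and 2290 of 10979 were lower. The list median was -0.61 beside 0.00 over all genes. Among the 6 was Ddit3 (CHOP), a factor of the unfolded protein response, which changed by -1.55 ± 0.27. Ddit3 then rose from 40.5 ± 3.38 on day 3 to 119.8 ± 27.2 on day 10 in Cont (1.55 ± 0.26, adjusted p = 2.3e-05, edgeR) and by 1.63 ± 0.28 in +Sm3CA. In each series 7 of the 16 rose over this time, and 1, Creb3 in +Sm3CA, fell, where 25.3% of all genes were called in Cont and 33.7% in +Sm3CA. In ESCs 9 were lower than in MEFs and 4 higher, where 59.6% of all genes were called and 30.5% were called lower. Creb3 was at 28.4 ± 17.5 in ESCs against 661 ± 138 in MEFs, and Atf1 at 147 ± 72.5 against 42.9 ± 16.2. Between +Sm3CA and Cont the list had no call before day 10, when 1 of the 16 was called, where 3.58% of all genes were. This was Creb3, which differed by -0.69 ± 0.19 (adjusted p = 0.025, edgeR).

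Kinases and SRF factors that act upstream were a list of 24 genes, of which 23 were found and 21 tested. On day 3 in Cont 7 were lower than in MEFs and 1 higher, where 43.4% of all genes were called and 2290 of 10979 were lower. The list median was -0.34 beside 0.00 over all genes. Elk3, an ETS factor that binds with SRF, changed by -2.66 ± 0.38, and the MAP kinase kinase gene Map2k3 rose by 1.00 ± 0.21. The ERK gene Mapk3 was at 33.0 ± 11.8 in MEFs and 6.597 ± 2.02 in Cont on day 3 and changed by -2.18 ± 0.47. None of the 21 was called between +Sm3CA and Cont on any day by edgeR. Of 12 heat shock and chaperone genes, 7 were higher and 1 lower than in MEFs on day 3 in Cont and 6 and 2 in +Sm3CA, where 43.4% and 43.1% of all genes were called. Hspd1 rose by 1.59 ± 0.19 in Cont. From day 3 to day 10 in Cont 6 of the 12 fell and none rose, where 25.3% of all genes were called. Their part in the values of Atf3 and Jun was not tested.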

How the data were processed

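The authors deposited raw counts of 5′-tagged reads, not of molecules, for 84 wells and 18909 genes. The submitters' processing notes name Bowtie 0.12.9, mm10 and DESeq2 1.6.3, and the annotation is not given in the sources used here. Wells of a biological replicate were summed (3 wells, 2 on day 10) to 30 libraries. Comparisons used the quasi-likelihood test of edgeR 4.0.16 in R 4.3.3 with TMM scaling, its default filter on low counts and Benjamini-Hochberg adjustment at 0.05, in a fit of all 30 libraries (10979 genes) where MEFs or ESCs entered and otherwise of the 24 reprogramming libraries (10237 genes). SEs are the log2 change over the root of F. Levels are counts over size factors of DESeq2 1.42.0. The scripts were tested on simulated data. Positions are from GENCODE M21 and promoters from RefSeq. Members, lists, motifs and the genes named were chosen with earlier results of these data known. Genes named from a list are among the 3 largest called changes in each direction with libraries apart, and genes of like pattern are the 2 of highest rho for members with a mean of at least 10 normalized counts. Alternatives were other scaling, the DESeq2 Wald test, no filter, replicate blocks, fewer groups and leaving out each library. Comparisons of adjacent days and the block within each series were added after seeing the data.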

Additional observations from a re-analysis of the deposited data

Results flagged for a closer look

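In the changes from day 3, all 3 replicates of one series, paired over days by the deposited design text, rose and all 3 of the other fell for a few members. For Fosb from day 3 to day 6, the change in +Sm3CA minus that in Cont was 1.28 ± 0.55 on the log2 scale (SE; unadjusted p = 0.0265, adjusted p = 0.98, edgeR). For Egr1 over the same days it was 0.85 ± 0.33 (unadjusted p = 0.0134, adjusted p = 0.98, edgeR). For Jun from day 3 to day 8 it was -0.74 ± 0.33 (unadjusted p = 0.0281, adjusted p = 0.47, edgeR). Egr1 was higher in every +Sm3CA library than in any Cont library on day 6 and lower in every one on day 10, and the difference on day 10 minus that on day 6 was -1.12 ± 0.33 (unadjusted p = 0.00137, adjusted p = 0.175, edgeR). None of the 4 passed the adjustment over all genes. They were picked by their pattern in these same libraries, so the unadjusted p-values are no separate test. The share of all genes with such patterns was not counted. Libraries of +Sm3CA and Cont did not overlap for 11.5% of all genes on day 6 and 20.7% on day 10.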

How the results depend on the processing

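The 28 member changes called gave 312 values under the alternatives. Of these, 284 kept their direction and stayed past the threshold, 28 kept the direction and missed it, and 0 reversed. From day 3 to day 10 in Cont, where 2 members were called, 1 was called with DESeq2 size factors, 1 by the DESeq2 Wald test and 1 with the replicate block, and 0 to 1 without single libraries. For +Sm3CA against Cont, leaving out single libraries gave 0 to 1 called on day 8 and 0 to 1 on day 10, and no filter gave 1 on day 10. With only the groups compared, 2 members were called from day 3 to day 6 in Cont and 0 from day 6 to day 8 in +Sm3CA. Without single libraries the +Sm3CA steps gave 1 to 2 (day 3 to day 6), 0 to 2 (day 6 to day 8) and 0 to 1 (day 8 to day 10), and the last step gave 1 with no filter and 1 with the block within series. The cause was not tested. Scaling by library total moved 5 of 100 group means by more than 1 SD.

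The design text deposited with the series states that replicate numbers pair the days within a series, and no source pairs the series with each other or with MEFs and ESCs. Deviations of same-numbered libraries correlated at -0.139 to 0.129, and in no comparison were all 3 over 0.1. The replicate block ended 1 call, that of Egr1 from day 3 to day 10 in Cont, and the block within series ended none.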

Other observations

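Chaperone genes had their own course beside the members. Summed over 12 heat shock and chaperone genes, MEF libraries held 11082 to 12514 normalized counts, Cont libraries 17931 to 19098 on day 3 and 12298 to 12951 on day 10, and ESC libraries 31402 to 32317. Gene by gene, 6 of the 12 were higher and 2 lower in ESCs than in MEFs, where 59.6% of all genes were called. The list median was 0.33 on the log2 scale, and 1 of the 12 had no read in ESCs. Hspd1, a mitochondrial chaperonin gene, was at 1747 ± 122 in Cont on day 3 and 752 ± 46.3 on day 10 (SD, n = 3), a log2 change of -1.23 ± 0.17 (adjusted p = 4.1e-07, edgeR). Hspb1, a small heat shock protein gene, differed by -1.02 ± 0.21 between +Sm3CA and Cont on day 8 (adjusted p = 0.0089, edgeR). In ESCs, Tnfaip3 had no read in any library, against 14.2 ± 3.47 in MEFs.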
